A study of Mus musculus with 37 samples.

Results

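The genes described here are Rora, Tmem176a, Tmem176b, Cd200r1, Cxcr6, Il7r, Kit, Krt83 and Gramd3, 9 of the 53700 genes counted. They are named in the field among genes of group 1 innate lymphoid cells (ILC1), and they were chosen by their read counts in these libraries, most of them standing higher in NKG2A+ than in uneducated uterine NK (uNK) cells of WT mice. The higher level in WT NKG2A+ cells therefore belongs to the choice of the genes and is given as a description, with no test. All 9 genes were found in the count tables by their Ensembl identifiers, and all are followed below whether or not they stood higher.

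Bulk RNA-seq was performed on uNK cells sorted from the pregnant uterus of C57BL6 mice on gestation days 9.5 to 10.5, as live CD45+ NKp46+ cells from a gate that left out, among others, cells with CD3, CD4, CD8 or high CD11b. In WT mice, 9 libraries held uneducated cells, which carry neither NKG2A nor Ly49C/I, 9 held NKG2A+ cells without Ly49C/I, and 6 held Ly49C/I+ cells without NKG2A. In mice labelled NKG2A KO on the C57BL6 background, 8 libraries held uneducated cells and 5 held Ly49C/I+ cells, and NKG2A was absent from both of these gates by genotype, so a cell that would have carried NKG2A in a WT mouse could not be sorted apart from the rest. Whether libraries with the same number came from 1 mouse, and whether mice were pooled, is not stated, so p-values measure the spread between these libraries, part of which may be technical. No NKG2A+ library of NKG2A KO mice and no cells with both receptors enter the data.

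NKG2A, which pairs with CD94, and Ly49C/I are inhibitory receptors for self MHC class I, and NK cells that engage them during development are called educated. ILC1 are tissue-resident relatives of NK cells that depend on the transcription factor T-bet, make interferon-γ and, in many organs, lack the NK cell factor Eomes. The pregnant mouse uterus holds conventional NK cells, tissue-resident NK cells and ILC1, all of which can carry NKp46. In bulk RNA, a lower share of cells that use a gene and less of its RNA in each cell cannot be told apart.

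Between 13287163 and 18875033 reads were counted on genes per library (median 17273311), and between 13982 and 17859 genes had a read. Reads are given as CPM, read counts relative to library sizes scaled by edgeR's TMM method. Klrc1, the gene of NKG2A, stood at 603.8 ± 87.1 CPM (SD, n = 9) in WT NKG2A+ libraries whereas the means of the remaining groups lay between 2.18 and 4.29 CPM. Klra9 (Ly49I) stood at 645.4 ± 98.2 CPM (SD, n = 6) and 976.1 ± 154.7 CPM (SD, n = 5) in the Ly49C/I+ libraries of WT and NKG2A KO mice, and the means elsewhere lay between 70.0 and 106.2 CPM. Klra3 (Ly49C) did not follow the gate, with 54.9 ± 19.5 CPM (SD, n = 6) and 94.4 ± 11.2 CPM (SD, n = 5) in the Ly49C/I+ libraries while the means of the remaining groups lay between 137.8 and 166.7 CPM. Reads of Klra3 and Klra9 may be shared with other genes of the Ly49 family.

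The label of ILC1 was set against marker genes. Eomes, which ILC1 of many tissues lack, was counted in every library, from 244.3 to 534.1 CPM, with a median of 357.1 to 395.5 CPM by group. The 4 ILC1 markers outside the 9 genes summed to a median of 1235 CPM in WT NKG2A+ libraries (range 1013 to 1443) and 860.4 CPM in WT uneducated libraries (range 707.8 to 1343). Of these, Tbx21 (T-bet) made up most of the sum, with medians of 972.8 and 602.3 CPM. Tnfsf10 (TRAIL) had medians of 61.2 and 46.8 CPM and Zfp683 (Hobit) 9.96 and 6.06 CPM. Itga1 (CD49a), carried by ILC1 and by tissue-resident NK cells, was lower in NKG2A+ libraries (157.0 against 215.3 CPM). The ILC1 sum was as high or higher in Ly49C/I+ libraries, with medians of 1264 CPM in WT and 1481 CPM in NKG2A KO mice. Tbx21 had medians of 966.3 and 1197 CPM there. NKG2A KO uneducated libraries had a median ILC1 sum of 1163 CPM. In WT NKG2A+ libraries, a list of 10 ILC2 genes summed to a median of 88.4 CPM (range 75.1 to 125.7). The median sum was 65.4 CPM in WT uneducated libraries (range 41.8 to 85.0). Gata3 made up most of it, at medians of 53.5 and 44.6 CPM. Hes1 had medians of 14.8 and 5.12 CPM, Bcl11b 8.27 and 5.20 CPM and Arg1 2.14 and 0.240 CPM. Areg was lower in NKG2A+ libraries (4.42 against 5.72 CPM). The ILC2 receptor gene Il1rl1, Il17rb, Il5, Il13 and Ptgdr2 had medians of 0 CPM in both groups. In WT Ly49C/I+, NKG2A KO uneducated and NKG2A KO Ly49C/I+ libraries the ILC2 sum had medians of 74.7, 70.8 and 104.1 CPM. Hes1 had medians of 14.5, 10.8 and 24.5 CPM in the same groups. The part of ILC1 or ILC2 in the levels of the 9 genes was not tested. Since Eomes was counted in every library, the sorted cells are not called ILC1 here and the genes are called by their symbols below.

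The genes have different roles. Rora encodes RORα, a nuclear receptor that acts as a transcription factor and is needed for ILC2. Il7r encodes the α chain of the IL-7 receptor, Kit the receptor of stem cell factor, Cxcr6 the receptor of the chemokine CXCL16, which helps to keep lymphocytes in tissues, and Cd200r1 an inhibitory receptor for CD200. Tmem176a and Tmem176b encode related membrane proteins of intracellular vesicles that act as cation channels. Krt83 encodes a hair keratin whose transcript is used as a marker of ILC1, and Gramd3 a protein with a GRAM domain.

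In the GENCODE M21 annotation of GRCm38, Rora (ENSMUSG00000032238) lies on the plus strand at chr9:68653786-69388246, Cxcr6 (ENSMUSG00000048521) on the plus strand at chr9:123806475-123811760, Kit (ENSMUSG00000005672) on the plus strand at chr5:75574916-75656722 and Cd200r1 (ENSMUSG00000022667) on the plus strand at chr16:44765736-44794978. Il7r (ENSMUSG00000003882) lies on the minus strand at chr15:9505788-9530176 and Krt83 (ENSMUSG00000067613) on the minus strand at chr15:101485130-101491512. Tmem176b (ENSMUSG00000029810, minus strand, chr6:48833818-48841496) and Tmem176a (ENSMUSG00000023367, plus strand, chr6:48840919-48847071) start next to each other in opposite directions, and their annotated spans overlap over 578 bases. The sources used here do not give the strand setting of the count, so reads from that overlap cannot be assigned to either gene. Cxcr6 lies inside the annotated span of Fyco1 on the opposite strand, and a stretch of Rora overlaps the antisense gene Gm15511. Whole spans were compared here and not exons, so whether any reads of Cxcr6 or Rora are affected was not examined. Of the 50-base stretches of Krt83 transcripts, 22.1% also occurred in transcripts of Krt81, Krt86 or Krt87, so that the level of Krt83 is uncertain by what those genes contribute.

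Promoter windows of RefSeq (GRCm38.p6) were matched for Rora, Tmem176a, Tmem176b, Cxcr6, Il7r and Kit. The 250 bases before each start site were searched on both strands for a half-site of ROR factors (AGGTCA), a T-box half-site (AGGTGTG), a RUNX site (TGTGGT) and an ETS core (GGAAGT), which occur in 14.0%, 5.10%, 14.0% and 19.7% of 32851 such windows. The Cxcr6 and Il7r windows and the 108 bases between the RefSeq starts of Tmem176b and Tmem176a are shown because they hold a match in a gene or gene pair whose levels are compared below. Capitals mark the match, which for Cxcr6 is the RUNX site read from the other strand, for Il7r the ETS core read from the other strand and for the Tmem176 genes the ETS core. Each is written 5′ to 3′, Il7r on the minus strand and the others on the plus strand.
Cxcr6, chr9:123806227-123806476: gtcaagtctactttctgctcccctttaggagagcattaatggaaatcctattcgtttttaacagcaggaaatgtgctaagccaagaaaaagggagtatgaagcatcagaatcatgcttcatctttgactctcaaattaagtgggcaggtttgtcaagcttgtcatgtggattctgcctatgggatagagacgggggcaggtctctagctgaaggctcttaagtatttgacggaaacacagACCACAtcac
Il7r, chr15:9529877-9530126: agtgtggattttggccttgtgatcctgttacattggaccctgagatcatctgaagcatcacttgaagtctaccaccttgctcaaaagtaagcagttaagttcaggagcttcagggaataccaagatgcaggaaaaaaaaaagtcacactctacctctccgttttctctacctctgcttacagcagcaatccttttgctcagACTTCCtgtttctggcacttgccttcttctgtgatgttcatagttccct
Tmem176b and Tmem176a, chr6:48841375-48841482: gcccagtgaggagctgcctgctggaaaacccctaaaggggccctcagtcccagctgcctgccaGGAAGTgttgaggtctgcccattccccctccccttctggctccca
Neither the ROR nor the T-box half-site occurred in any of the windows of these 6 genes, and the Rora and Kit windows held none of the 4 motifs.

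In WT mice, 8 of the 9 genes stood higher in NKG2A+ than in uneducated libraries and Kit did not. Rora ranged from 25.9 to 54.7 CPM (median 39.1) in the 9 NKG2A+ libraries and from 0.702 to 11.6 CPM (median 7.56) in the 9 uneducated libraries. Gramd3 ranged from 80.1 to 216.8 CPM (median 111.9) against 11.2 to 35.7 CPM (median 21.0). For both genes the lowest NKG2A+ library was above the highest uneducated one.

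The pair of Tmem176 genes moved in the same way. Tmem176a ranged from 16.2 to 71.2 CPM (median 21.7) in NKG2A+ libraries and from 0.526 to 10.3 CPM (median 4.66) in uneducated libraries. Tmem176b ranged from 22.9 to 126.7 CPM (median 39.6) and from 4.15 to 17.9 CPM (median 11.4). The libraries of the 2 groups did not overlap for either, and the highest NKG2A+ library of both was number 3.

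Among the receptors, Cd200r1 ranged from 5.78 to 30.8 CPM (median 15.1) in NKG2A+ libraries and from 0 to 4.14 CPM (median 1.80) in uneducated libraries, 2 of which held no read. A count of 0 allows up to 3 counts, or 0.186 CPM in the shallowest of these libraries, by counting error only. Cxcr6 ranged from 23.6 to 195.8 CPM (median 64.0) against 4.91 to 25.6 CPM (median 11.5), and Il7r from 5.09 to 34.6 CPM (median 19.9) against 0.409 to 8.58 CPM (median 4.08). The lowest NKG2A+ library of Cxcr6, of Il7r and of Cd200r1 was number 9, and for Cxcr6 and Il7r it fell within the range of the uneducated libraries.

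Krt83 ranged from 13.4 to 57.7 CPM (median 24.2) in NKG2A+ libraries and from 2.81 to 11.2 CPM (median 4.78) in uneducated libraries, with no overlap. Kit ranged from 9.25 to 41.5 CPM (median 38.0) against 20.4 to 50.4 CPM (median 40.4), and its groups overlapped almost entirely. Kit was thus listed with the genes that stood higher but did not itself stand higher in these libraries.

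The fitted log2 fold changes of NKG2A+ over uneducated cells were 3.29 (SE 0.616) for Cd200r1, 2.86 (SE 0.380) for Cxcr6, 2.64 (SE 0.394) for Tmem176a, 2.51 (SE 0.498) for Il7r, 2.50 (SE 0.229) for Gramd3, 2.49 (SE 0.318) for Rora, 2.33 (SE 0.317) for Tmem176b, 1.97 (SE 0.328) for Krt83 and −0.15 (SE 0.220) for Kit. Of all 9339 genes tested in this comparison, 15.0% passed the threshold in either direction and 7.47% were higher, and the libraries of 1.18% did not overlap and stood higher, as did those of 6 of the 9 genes. Nothing is read from these shares, since this comparison chose the genes. The plot of levels by library shows the groups of all 9 genes side by side.

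**Figure D1:**
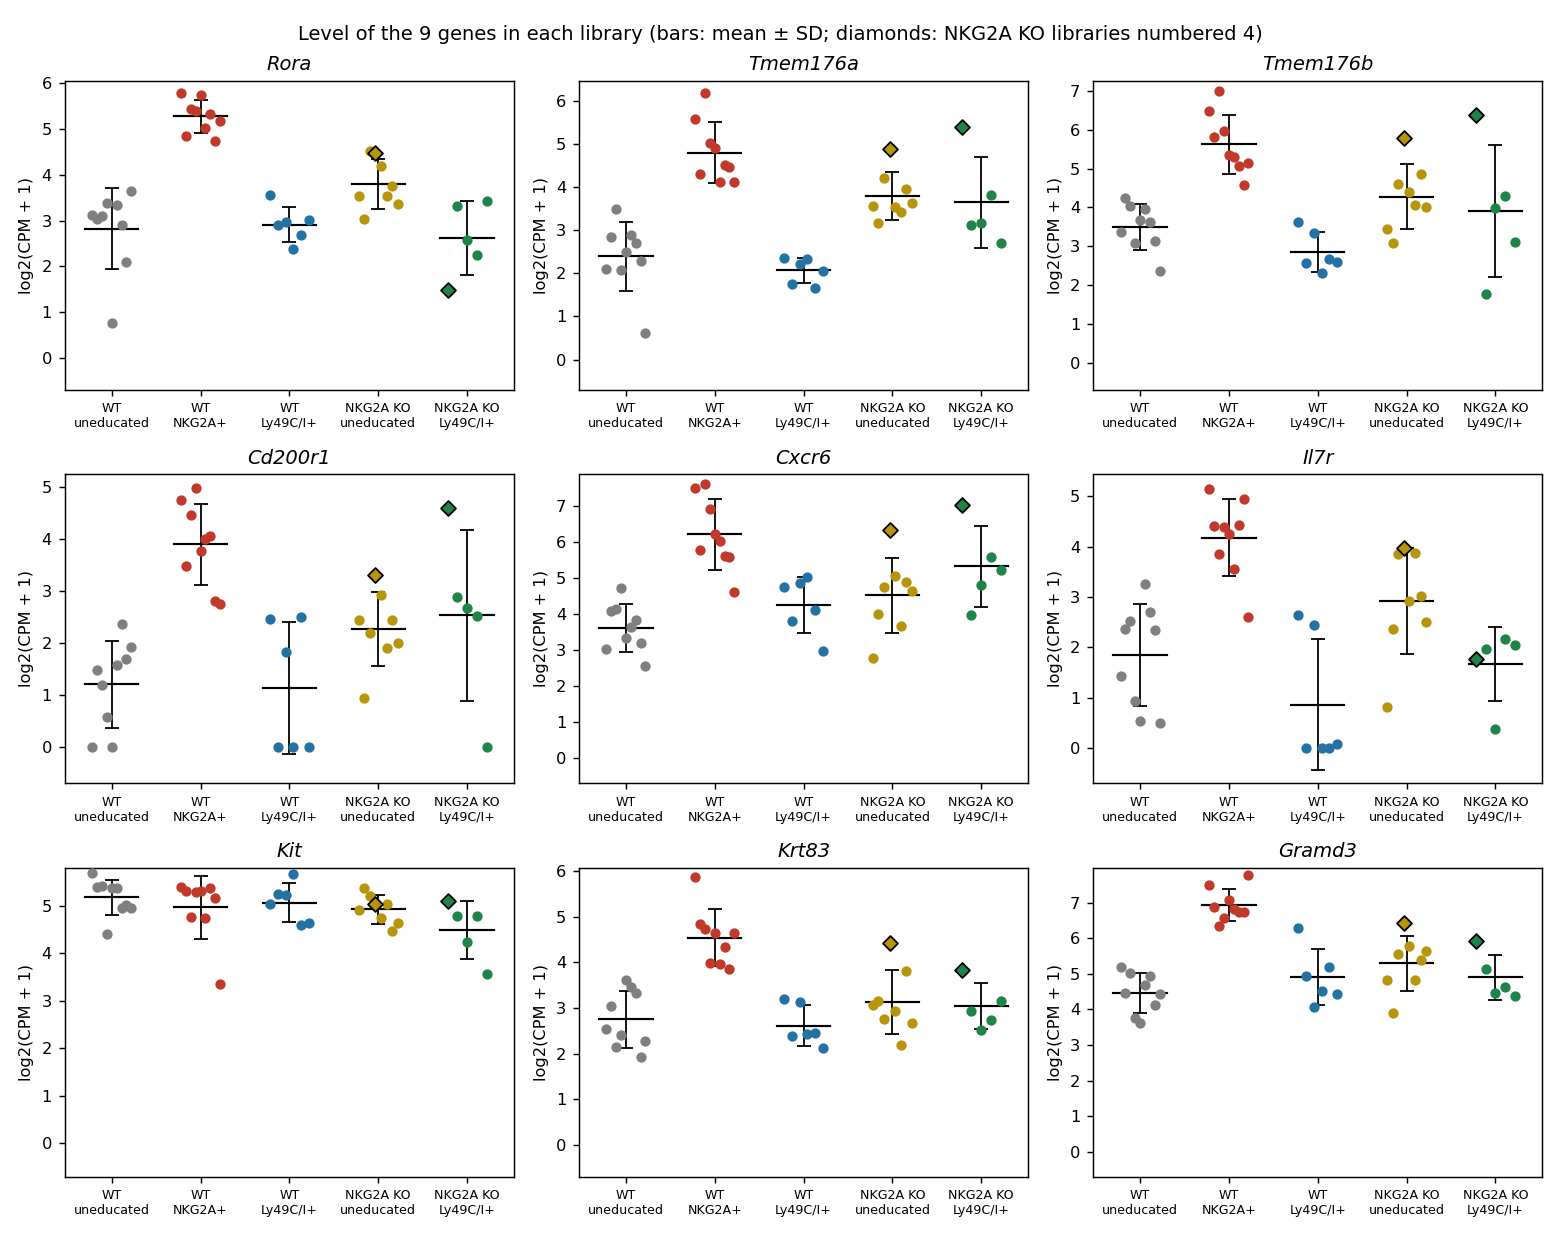
Each point is 1 library, with log2(CPM + 1) on the vertical axis and the 5 groups on the horizontal axis; lines and bars give the mean ± SD, and diamonds mark the NKG2A KO libraries numbered 4. The WT NKG2A+ mean stands above those of the other groups for 8 genes, with a Rora range of 25.9 to 54.7 CPM that no other group reached, while Kit stands at a like level in all groups.

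Per kilobase of exon, the scale on which genes can be compared, Cxcr6 was the most abundant of the 9 genes in WT NKG2A+ libraries, with a median of 33.1 CPM per kb. Gramd3 (19.7), Tmem176b (16.7) and Krt83 (13.1 CPM per kb) followed, of which Gramd3 (ENSMUSG00000001700) lies on the plus strand at chr18:56400337-56503792. Tmem176a, Cd200r1, Kit and Il7r lay between 4.26 and 5.71 CPM per kb, and Rora was lowest, at 2.99 CPM per kb.

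The order of the groups was compared gene by gene. WT NKG2A+ cells came first for 8 genes and Kit was ordered from WT uneducated to NKG2A KO Ly49C/I+ cells with overlap at each step. Rora was the only gene whose WT NKG2A+ libraries all lay above every library of the next group, the NKG2A KO uneducated cells (highest library 21.9 CPM). Gramd3 had 8 of 9 WT NKG2A+ libraries above all NKG2A KO uneducated libraries. All other neighbours in the order overlapped for every gene.

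WT Ly49C/I+ cells, the other educated population, overlapped WT uneducated cells in the levels of all the genes, though some medians differed. Rora ranged from 4.18 to 10.7 CPM (median 6.68) in the 6 libraries, Tmem176b from 3.99 to 11.4 CPM (median 5.20), Cxcr6 from 6.84 to 31.6 CPM (median 21.2) and Gramd3 from 15.9 to 77.3 CPM (median 25.6). All 4 ranges overlapped those of WT uneducated cells. Il7r and Cd200r1 each had no read in 3 of the 6 libraries. The median of Il7r was 0.0278 CPM, against 4.08 CPM in WT uneducated libraries, where no library lacked reads of it.

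Of the 9 genes, 5 had enough reads for a test against WT uneducated cells, whose libraries also served to choose the genes. None of the 5 passed the threshold, with the edgeR quasi-likelihood test, where 855 of 9292 genes (9.20%) passed. The log2 fold changes were 0.72 (SE 0.363) for Cxcr6, 0.59 (SE 0.324) for Gramd3, −0.02 (SE 0.421) for Rora, −0.08 (SE 0.210) for Kit and −0.72 (SE 0.351) for Tmem176b. Tmem176a, Cd200r1, Il7r and Krt83 stayed below the filter of 5 CPM in at least 0.5 of the libraries.

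Set directly against WT Ly49C/I+ cells, WT NKG2A+ cells again stood higher. The log2 fold changes were 3.56 (SE 0.970) for Il7r, 3.20 (SE 0.366) for Tmem176a, 3.05 (SE 0.384) for Tmem176b, 3.02 (SE 0.889) for Cd200r1, 2.51 (SE 0.234) for Rora, 2.18 (SE 0.343) for Krt83, 2.14 (SE 0.446) for Cxcr6, 1.91 (SE 0.310) for Gramd3 and −0.07 (SE 0.259) for Kit. Libraries did not overlap for Rora, Tmem176a, Tmem176b, Cd200r1, Krt83 and Gramd3. Among all 9308 genes, 1.31% passed the threshold as higher, and 6 of the 9 genes were among them, while 0.591% stood higher without overlap. The NKG2A+ libraries are those that chose the genes, so these values are a description too.

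In NKG2A KO uneducated cells, 8 of the 9 genes had a higher mean than in WT uneducated cells and Kit had a lower mean. None of those tested across all genes passed the threshold. The WT uneducated libraries are the lower side of the comparison that chose the genes, so nothing is read from the direction of these means. Over all genes tested between these 2 groups, the median log2 fold change was −0.01. Rora ranged from 7.15 to 21.9 CPM (median 11.6) in the 8 libraries, Tmem176a from 7.90 to 28.4 CPM (median 11.1) and Tmem176b from 7.43 to 54.0 CPM (median 17.8). Cxcr6 had a median of 24.9 CPM (27.9 ± 22.9, SD, n = 8), Gramd3 from 13.8 to 84.5 CPM (median 43.5) and Krt83 from 3.56 to 20.4 CPM (median 7.01). All of these ranges overlapped those of WT uneducated cells, and all but that of Rora overlapped those of WT NKG2A+ cells.

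None of the 7 genes tested passed the threshold between NKG2A KO and WT uneducated cells. The edgeR quasi-likelihood test called 0 of 9288 genes (0% called), 619 genes had an unadjusted p under 0.05, and edgeR's likelihood ratio test and DESeq2 called 1 gene each. Tmem176a was at a log2 fold change of 1.49 (SE 0.382, adjusted p = 0.507, edgeR) and Gramd3 at 0.92 (SE 0.288, adjusted p = 0.507, edgeR). The value was 1.16 for Cxcr6, 0.98 for Rora, 0.96 for Tmem176b, 0.46 for Krt83 and −0.28 for Kit, with adjusted p between 0.574 and 0.858 in the same edgeR test.

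Cd200r1 and Il7r were below the filter, and for each the mean log2(CPM + 1) was compared by exact permutation (two-sided). Cd200r1 ranged from 0.922 to 8.96 CPM (median 4.01) in NKG2A KO uneducated cells, against 0 to 4.14 CPM in WT, a difference of 1.07 (exact permutation p = 0.0138, unadjusted). Il7r ranged from 0.754 to 14.7 CPM (median 6.87), against 0.409 to 8.58 CPM in WT, also a difference of 1.07 (exact permutation p = 0.0518, unadjusted). Both p-values are for single genes, and the WT libraries are among those that chose the genes.

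In NKG2A KO Ly49C/I+ cells, library 4 stood apart from the other 4. In libraries 4, 5, 6, 7 and 8, Tmem176b stood at 82.2, 2.41, 14.9, 18.8 and 7.65 CPM. Tmem176a stood at 41.1, 7.74, 7.94, 13.0 and 5.53 CPM. Library 4 was the highest for both genes and lay within the range of the WT NKG2A+ libraries.

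The other receptors of these 5 libraries followed in part. Cxcr6 stood at 130.6, 14.7, 26.8, 46.5 and 36.4 CPM in libraries 4 to 8, and Cd200r1 at 23.4, 6.36, 5.41, 4.76 and 0 CPM. Library 4 was again the highest. Il7r stood at 2.43, 2.92, 0.294, 3.51 and 3.15 CPM, and Kit at 33.6, 26.5, 18.0, 26.6 and 10.8 CPM, so that library 4 led for Kit and not for Il7r.

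Rora went the other way, with 1.78, 9.00, 5.00, 3.78 and 9.76 CPM in libraries 4 to 8. Library 4 was thus the lowest for Rora. Krt83 stood at 13.3, 6.65, 4.77, 5.68 and 7.97 CPM and Gramd3 at 59.2, 34.1, 21.0, 23.7 and 19.9 CPM, both highest in library 4.

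Ly49C/I+ and uneducated cells of NKG2A KO mice share no library with the comparison that chose the genes. Of the 7 genes tested, Rora fell in Ly49C/I+ cells, with a log2 fold change of −1.23 (SE 0.402, adjusted p = 0.0458, edgeR quasi-likelihood test). This 1 of 7 compares with 16.3% of 9299 genes called in either direction and 8.99% called lower. The libraries of the 2 groups overlapped between 7.15 and 9.76 CPM. The Rora call was lost when any 1 of 9 of the 13 libraries was left out (uneducated 1, 3, 4, 5, 6 or 7, or Ly49C/I+ 4, 6 or 7), and with single libraries left out the log2 fold change lay between −1.50 and −0.99. It was also lost with edgeR's filterByExpr (adjusted p = 0.0645), when low genes were kept in (adjusted p = 0.104) and with the replicate number as a block (adjusted p = 0.126).

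The other 6 genes did not pass the threshold in NKG2A KO mice. The log2 fold change was 0.87 (SE 0.515, adjusted p = 0.263, edgeR) for Cxcr6 and −0.44 (SE 0.351, adjusted p = 0.431, edgeR) for Gramd3, which passed with the replicate number as a block (−0.73, adjusted p = 0.0315, edgeR). Kit was at −0.38, Krt83 at −0.19, Tmem176b at 0.22 and Tmem176a at 0.13. For Tmem176a and Tmem176b the difference of mean log2(CPM + 1) had the opposite sign (−0.15 and −0.37), and without Ly49C/I+ library 4 the fitted values were −0.69 and −0.99. Il7r, below the filter, was lower by 1.25 on the log2(CPM + 1) scale (difference −1.25, two-sided exact permutation p = 0.0451, unadjusted), and Cd200r1 differed by 0.26 (exact permutation p = 0.707), where the smallest p possible was 7.77e-04. The p of Il7r was above 0.05 without any 1 of uneducated libraries 3 to 8 or Ly49C/I+ libraries 4, 5, 6 or 8, and reached 0.125 without Ly49C/I+ library 6 (exact permutation).

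NKG2A KO and WT Ly49C/I+ cells also share no library with the choice of the genes, and no gene passed the threshold between them. The edgeR quasi-likelihood test called 0 of 9344 genes (0% called), with 992 at an unadjusted p under 0.05, whereas edgeR's likelihood ratio test called 60 and DESeq2 118. Tmem176b stood at a log2 fold change of 1.90 (SE 0.659, adjusted p = 0.359, edgeR quasi-likelihood test) in NKG2A KO cells, and at 0.70 without library 4. Cxcr6 stood at 1.31 (SE 0.491, adjusted p = 0.388, edgeR quasi-likelihood test), and at 0.60 without library 4. Krt83 was at 0.50, Gramd3 at −0.10, Rora at −0.21 and Kit at −0.57.

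Tmem176a was below the filter in that comparison. Its 5 NKG2A KO libraries, from 5.53 to 41.1 CPM, all lay above the 6 WT libraries, from 2.17 to 4.11 CPM. Libraries stood higher without overlap for 0.867% of the genes tested. No gene passed the threshold when the effects of Ly49C/I+ in the 2 genotypes were compared (edgeR quasi-likelihood test of the interaction, 0 of 9322 genes, 407 at an unadjusted p under 0.05, 1 by the likelihood ratio test and 1 by DESeq2). The fitted differences of the genes tested lay between −1.19 (Rora) and 0.96 (Tmem176b). The plot of fold changes shows these comparisons together.

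**Figure D2:**
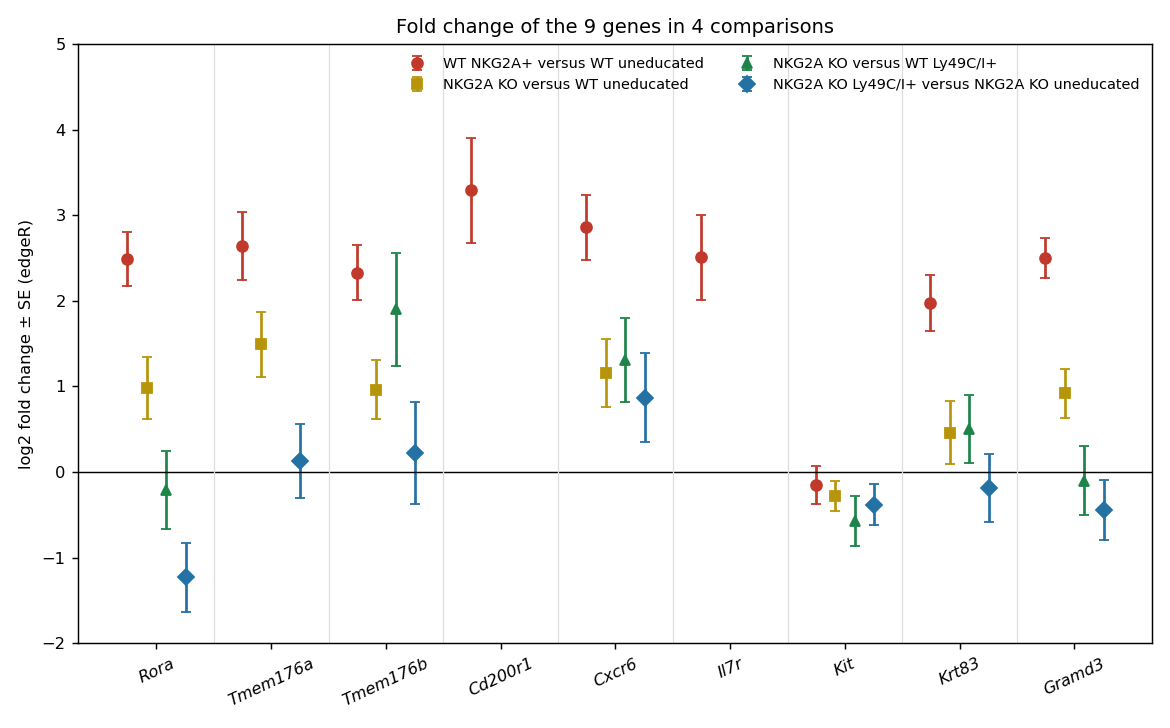
Points give the log2 fold change of each gene and bars its SE from edgeR in 4 comparisons; a gene below the filter on CPM in a comparison has no point. WT NKG2A+ cells stand at 1.97 or more over WT uneducated cells for all genes but Kit, and in both comparisons that use NKG2A KO Ly49C/I+ cells Tmem176b and Cxcr6 have the widest bars.

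Whether the genes vary together was examined within groups, after each group's mean was taken from log2(CPM + 1), over all 37 libraries. Of the 36 pairs of genes, 14 had an adjusted p under 0.05 for Pearson's r by permutation within groups (Benjamini-Hochberg over the 36 pairs). The median r was 0.34 and 88.9% of the pairs were positive, against a median of 0.00 and 50.7% positive over all pairs of the 9287 genes that reached 5 CPM in 0.5 or more of the 37 libraries. The spread within groups was not used to choose the genes, but same-numbered libraries may share a mouse, which the permutation does not take into account.

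Tmem176a, Tmem176b and Cxcr6 formed the closest set. Tmem176a and Tmem176b, the overlapping pair, had r = 0.82 and rho = 0.79. Tmem176b and Cxcr6, which lie on different chromosomes, had r = 0.76 and rho = 0.71, and Tmem176a and Cxcr6 had r = 0.73 and rho = 0.73 (for r of all 3 pairs permutation p = 1.00e-05, the smallest these draws can give, adjusted p = 1.20e-04, and for rho permutation p = 3.00e-05 or less, adjusted p = 3.60e-04 or less). Without the 2 libraries farthest from the median of the first gene, r was 0.81, 0.73 and 0.70. That median was taken over all libraries before centring, so these 2 need not be the farthest from their group means. Without the NKG2A KO libraries numbered 4, r was 0.72, 0.67 and 0.63 for the 3 pairs, and all 3 still passed (largest permutation adjusted p = 7.20e-04).

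Krt83 followed this set more loosely, with r = 0.54 and rho = 0.48 to Tmem176b (permutation adjusted p = 0.00639 and 0.0273, r = 0.51 without the 2 farthest libraries) and r = 0.48 to both Tmem176a and Cxcr6. Cd200r1 had r = 0.53 and rho = 0.50 to Tmem176b (permutation adjusted p = 0.0309 and 0.0175) and r = 0.46 and rho = 0.40 to Gramd3 (permutation adjusted p = 0.0309 and 0.0725). Without the NKG2A KO libraries numbered 4, the r of Krt83 to Tmem176b was 0.39 (permutation adjusted p = 0.0930) and that of Cd200r1 to Gramd3 0.33 (permutation adjusted p = 0.213). In all, 5 pairs passed without those libraries.

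Over all 37 libraries together, Rora stood outside this set. Its r with the other 8 genes lay between −0.19 and 0.34, and none passed the threshold with all libraries. Groups differed in this respect. The r of Rora with Tmem176b was 0.82 in NKG2A KO uneducated, 0.83 in WT Ly49C/I+, 0.52 in WT NKG2A+ and −0.18 in WT uneducated libraries. None of these values had an adjusted p under 0.05 (exact permutation). Without the NKG2A KO libraries numbered 4, Rora and Gramd3 had r = 0.48 (permutation adjusted p = 0.0337). Kit passed with none of the genes. The grid of correlations and the plot of deviations show the difference between Cxcr6 and Rora.

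**Figure D3:**
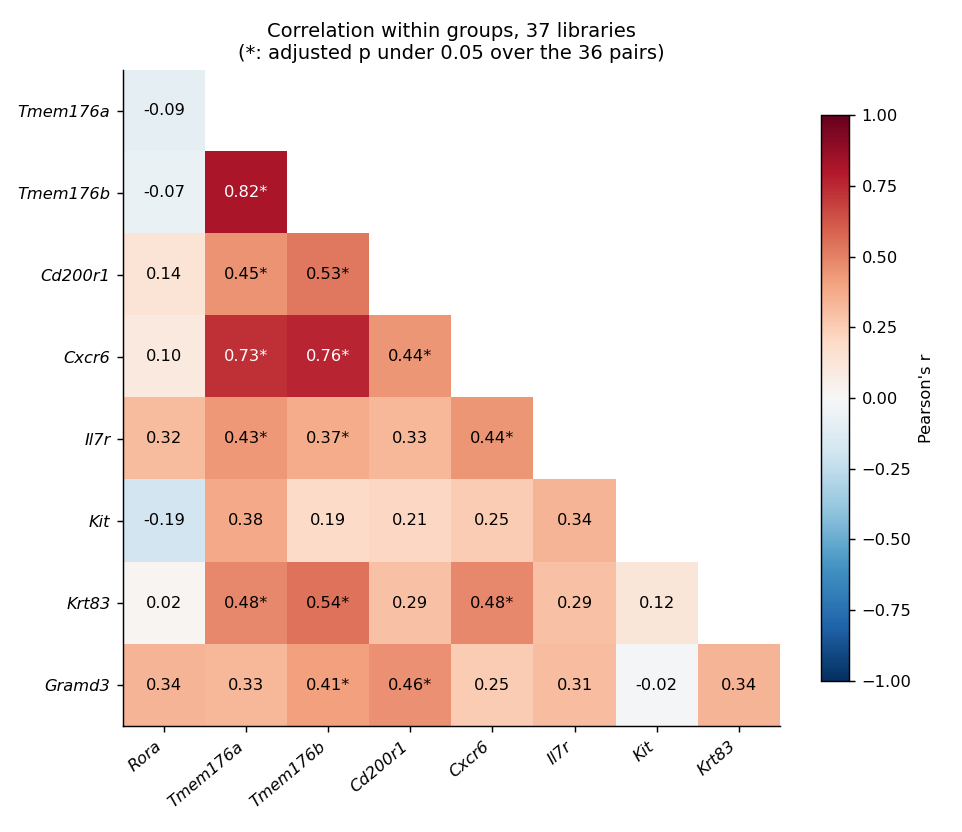
Each cell gives Pearson's r between the deviations of 2 genes from their group means in log2(CPM + 1), over 37 libraries, and an asterisk marks an adjusted p under 0.05. The darkest cells join Tmem176a, Tmem176b and Cxcr6 (0.73 to 0.82), and the Rora column lies between −0.19 and 0.34.

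**Figure D4:**
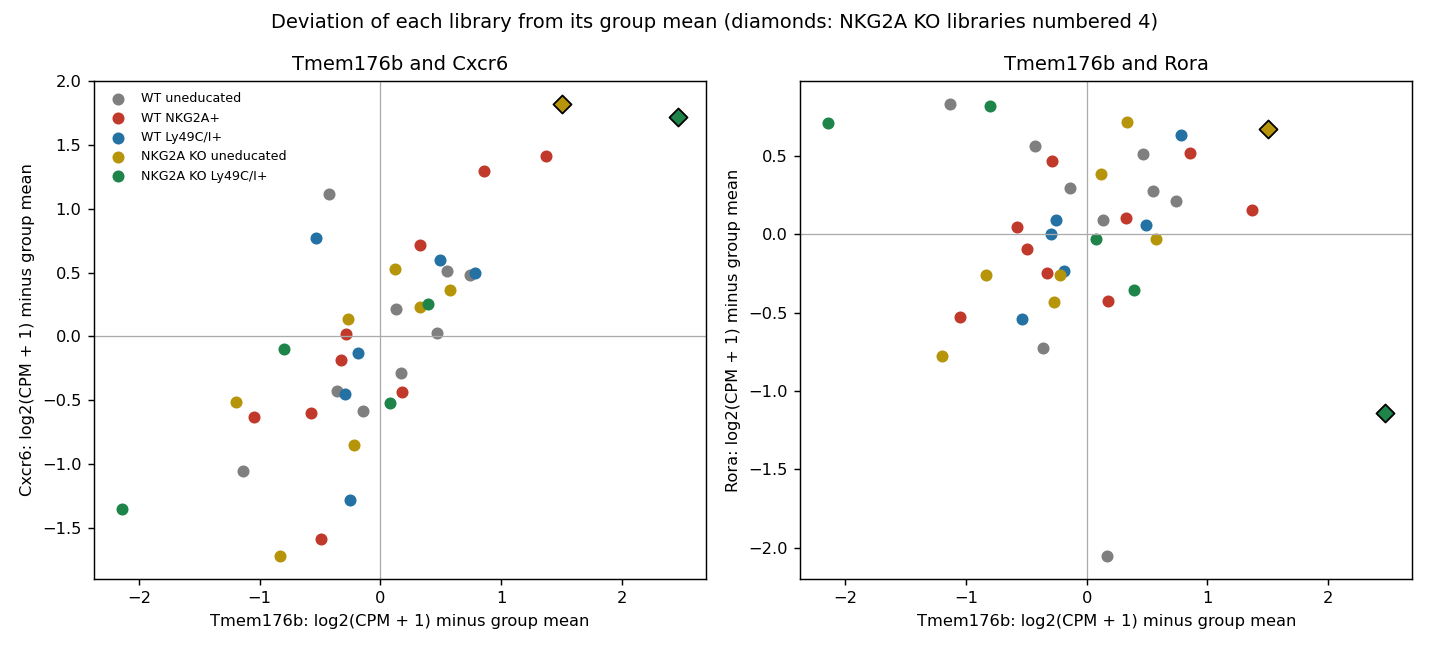
Each point is 1 library, coloured by group, with the deviation of Tmem176b from its group mean on the horizontal axis and that of Cxcr6 (left) or Rora (right) on the vertical axis, in log2(CPM + 1); diamonds mark the NKG2A KO libraries numbered 4. Over all libraries together, Cxcr6 rises along Tmem176b (r = 0.76) and Rora does not (r = −0.07).

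Within single groups the number of libraries was small. Of the 36 pairs, 5 passed an exact permutation test of r in the 9 WT NKG2A+ libraries (median r = 0.43), 1 in the 9 WT uneducated libraries (median r = 0.25), and 0 in the 8 NKG2A KO uneducated libraries (median r = 0.63) and the 6 WT Ly49C/I+ libraries (median r = 0.49). The pair that passed in WT uneducated libraries was Tmem176a and Tmem176b (r = 0.92, exact permutation adjusted p = 0.0174).

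Single libraries carried several of the genes at once. In NKG2A KO mice, library 4 was the highest for 7 of the 9 genes in uneducated cells and for 7 of the 9 in Ly49C/I+ cells, and 6 genes (Cd200r1, Cxcr6, Gramd3, Krt83, Tmem176a and Tmem176b) were in both counts. WT Ly49C/I+ library 1 was the highest of its group for 6 genes. WT NKG2A+ library 9 was the lowest of its group for 5 genes.

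Transcripts of some T cell genes moved with the 9 genes, although the gate left out CD3+, CD4+ and CD8+ cells. Tcrg-C4, a constant segment of the T cell receptor γ chain, ranged from 28.1 to 119.2 CPM (median 41.6) in WT NKG2A+ libraries and from 0.0545 to 9.66 CPM (median 4.10) in WT uneducated libraries. It stood at 45.0 CPM in NKG2A KO uneducated library 4, the highest of its group, and at 58.2 CPM in NKG2A KO Ly49C/I+ library 4, against 5.96 to 14.6 CPM in the other 4 libraries. Cd3e, a chain of the CD3 complex, had a median of 13.1 CPM in WT NKG2A+ libraries and 3.04 CPM in WT uneducated libraries. Cd3g, another CD3 chain, and Trac, a T cell receptor α segment, were not higher there (medians 76.0 and 28.0 against 83.4 and 29.7 CPM). In NKG2A KO Ly49C/I+ library 4, Cd3e stood at 3.56 and Tcrg-C2 at 1.40 CPM, both below library 5 (6.47 and 1.89 CPM). Cd4 had no read in 8 of 9 WT NKG2A+ libraries, and neither had Cd8a.

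Over the whole list of 17 T cell genes, summed CPM ranged from 846.2 to 1210 (median 1001) in WT NKG2A+ libraries. It ranged from 592.9 to 832.9 (median 797.4) in WT uneducated and from 857.3 to 1070 (median 941.5) in WT Ly49C/I+ libraries. In NKG2A KO mice it ranged from 715.5 to 928.2 in uneducated and from 914.3 to 983.4 in Ly49C/I+ libraries. Within groups, r with the mean of the 9 genes ran from −0.35 (Trdc) to 0.62 (Trbc2) over the 17 genes. It was 0.59 for Cd3e, 0.54 for Tcrg-C2, 0.43 for Tcrg-C4, 0.15 for Cd3g and −0.23 for Trbc1. The summed list had r = 0.29, while summed lists of the other cell types ran from −0.33 (B cells) to 0.38 (ILC3). These values are a description over 37 libraries that share depth and preparation. The part of the T cell transcripts in the levels of the 9 genes was not tested. Summed myeloid genes were highest in WT NKG2A+ library 1 (369.5 CPM) and WT Ly49C/I+ library 1 (459.6 CPM), and their part was not tested either.

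The genes were set beside lists of related genes. Among 21 other ILC1-associated genes, 20 were tested between WT NKG2A+ and uneducated cells, of which 7 were past the threshold as higher and 2 as lower (15.0% of all genes in either direction), with a median log2 fold change of 0.41 against 0.01 over all genes. Ahr, a ligand-activated transcription factor, stood at 1.66 (SE 0.327), Il18r1, a chain of the IL-18 receptor, at 1.65 (SE 0.242), Emb (embigin) at 1.19 (SE 0.144) and Cd160 at 1.16 (SE 0.174), while Itga1 was at −0.36 (SE 0.106). Of 18 genes of conventional NK cells, 10 were past the threshold as higher and 3 as lower, beside the same 15.0% of all genes, with a median of 1.00. S1pr1 and S1pr5, receptors that guide exit from tissues, stood at 1.84 (SE 0.463) and 1.50 (SE 0.304), Ly6c2 at 1.38 (SE 0.182) and Zeb2, a factor of NK cell maturation, at 1.33 (SE 0.327), while Gzmb (granzyme B) was at −0.68 (SE 0.109). The p-values are left out because this comparison chose the 9 genes.

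The NKG2A KO libraries did not enter the comparison that chose the 9 genes. All lists, however, were drawn up with earlier results of these data known, so the p-values of list genes do not follow an independent choice. In NKG2A KO mice, 9 of the 20 other ILC1-associated genes rose in Ly49C/I+ cells and 2 fell. The median was 0.45, against 0.02 over all genes, of which 16.3% were called in either direction. Sdc4, a syndecan, rose by 1.39 (SE 0.413, adjusted p = 0.0299, edgeR), and Il2ra, the α chain of the IL-2 receptor, was at −1.69 (SE 0.360, adjusted p = 0.00505, edgeR). Of the 18 conventional NK genes, 8 rose and 3 fell (median 0.44), beside the same 16.3% of all genes. Ly6c2 rose by 1.41 (SE 0.187, adjusted p = 3.11e-04, edgeR), Cx3cr1 by 1.22 and S1pr5 by 1.03, while S1pr1 was at −0.98 (SE 0.327, adjusted p = 0.0480, edgeR).

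Partners and relatives of the 9 genes numbered 27, of which 16 were tested. Cxcl16 and Kitl, the ligands of CXCR6 and KIT, Cd200, and the RORα relative Rorb were among those below the filter. In Ly49C/I+ cells of NKG2A KO mice 7 of the 16 rose and 0 fell, where 16.3% of all genes were called. Nr1d2 (REV-ERBβ), a nuclear receptor that binds the same DNA elements as RORα, rose by 1.01 (SE 0.222, adjusted p = 0.00604, edgeR). Gramd1a, a relative of Gramd3, rose by 0.64 (SE 0.141, adjusted p = 0.00604, edgeR), Cd200r4, a relative of Cd200r1, by 0.57 and Bcl2, a survival gene induced by IL-7, by 0.56. Between WT NKG2A+ and uneducated cells, 5 of the 16 were past the threshold as higher (15.0% of all genes in either direction), with Nr1d2 at 1.25 (SE 0.207), Cd200r4 at 0.69 (SE 0.187), Gramd1b at 0.64 (SE 0.164) and Dok2 at 0.51 (SE 0.0820). In both comparisons of NKG2A KO with WT cells, 0 genes of the 3 lists passed the edgeR quasi-likelihood test.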

How the data were processed

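The deposited values are raw read counts for 53700 Ensembl genes in each library, made by the authors from trimmed reads aligned with STAR 2.7.1 to GRCm38. FastQC 0.11.4, Trim Galore 0.5.0 and edgeR 3.26.5 are also named in the submitters' processing notes. Which program counted the reads is not given in the sources read here. Libraries were made with SMART-Seq v4 and Nextera XT, without molecular identifiers, so that a limit drawn from a count covers counting error alone. Summary lines that name no gene were left out (no feature 2.69 to 6.83%, ambiguous 4.04 to 4.6%, not unique 11.3 to 13.8% of reads).

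The quasi-likelihood test of edgeR 4.0.16 (R 4.3.3) was applied to TMM-scaled counts of genes that reached 5 CPM in 0.5 or more of the libraries in a comparison, with Benjamini-Hochberg adjustment over all genes tested and a threshold of 0.05. Only the groups compared entered a fit. Genes below the filter were compared by exact permutation on log2(CPM + 1), and correlations used 100000 permutations within groups. The authors' correction by CQN was replaced by spline offsets (5 degrees of freedom) as an alternative. The other alternatives were DESeq2 1.42.0, the likelihood ratio test, RLE factors, other filters, a replicate block, a fit of all groups together and fits that leave out 1 library each. The quasi-likelihood test was checked on simulated data with planted changes. By comparison it recovered 55.2 to 83.6% of 2-fold changes and 29.9 to 47.8% of 1.5-fold changes. Both were lowest for NKG2A KO over WT Ly49C/I+ cells, so a lack of calls there leaves room for such changes. Symbols came from GENCODE M21, which names 52093 of the identifiers.

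The 9 genes and all lists were chosen with earlier results of these data known. Named genes are the 9 genes, the sorted receptors, markers of the cell types the sort could hold, and from each list the genes past the threshold, those with the largest change first.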

Additional observations from a re-analysis of the deposited data

Results flagged for a closer look

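Of 45 sets of libraries examined (9 genes in 5 groups), 4 held a library whose distance on the log2(CPM + 1) scale to the nearest other one, as a share of the whole range of its group, was above Dixon's 95% critical value, where chance gives about 1 in 20 sets. Kit stood at 9.25 CPM in WT NKG2A+ library 9, the lowest, with the next at 25.8 CPM (share 0.68). Il7r stood at 0.294 CPM in NKG2A KO Ly49C/I+ library 6, with the next at 2.43 CPM (share 0.78). Tmem176a stood at 0.526 CPM in WT uneducated library 9, with the next at 3.24 CPM (share 0.51). Krt83 stood at 57.7 CPM in WT NKG2A+ library 1, the highest, with the next at 27.9 CPM (share 0.50).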

How the results depend on the processing

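In Ly49C/I+ against uneducated cells of NKG2A KO mice, 1 of the 9 genes passed the threshold, but 0 passed with edgeR's filterByExpr (Rora adjusted p = 0.0645) or with no filter (adjusted p = 0.104), and between 0 and 1 passed with each library left out. With the replicate number as a block, Rora was at −1.40 (adjusted p = 0.126) and Gramd3 passed at −0.73 (adjusted p = 0.0315), Tmem176a was at −0.27 and Tmem176b at −0.72, and with GC content and length offsets besides the block at −0.17 and −0.60. Same-numbered libraries deviated together (r over 0.1) in 2 of 5 such pairs, in 4 of 6 for WT Ly49C/I+ and uneducated, 1 of 6 for WT NKG2A+ and Ly49C/I+, and 4 of 9 for WT NKG2A+ and uneducated. Whether the numbers pair the samples is not stated, and the main fits did not pair them. The numbers of the WT Ly49C/I+ libraries were taken from the sample descriptions, and some of their titles number them otherwise. WT uneducated library 5 was numbered by its title, since its description repeats that of another library. The block fits and the agreement between numbers depend on this choice. A library agreed best with its own number in 3 of 5, 5 of 6, 6 of 6 and 4 of 9. With the block and with the block and offsets, Rora in WT Ly49C/I+ over uneducated cells was at 0.50 and 0.45, and Kit in WT NKG2A+ over Ly49C/I+ cells at 0.23 and 0.24. Il7r in the latter was at 6.10 (replicate block).

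With each library left out, log2 fold changes in NKG2A KO mice ran from −0.69 to 0.36 for Tmem176a, −0.99 to 0.57 for Tmem176b and −0.48 to 0.12 for Krt83. Over WT Ly49C/I+ cells, the NKG2A KO values ran from −0.48 to 0.02 for Rora and −0.45 to 0.33 for Gramd3. Rora in WT Ly49C/I+ over uneducated cells ran from −0.21 to 0.10, and Kit in WT NKG2A+ over Ly49C/I+ cells from −0.16 to 0.09. By exact permutation in NKG2A KO mice, Cd200r1 ran from −0.25 to 0.90 and Il7r from −1.55 to −0.92, and Il7r with a pseudocount of 0.25 was at −1.52 (exact p = 0.0536). Il7r in NKG2A KO over WT uneducated cells ran from 0.90 to 1.37 and was at 0.67 with a pseudocount of 4 (exact p = 0.0422). The 14 correlated pairs were 8 with a pseudocount of 0.25 and, chosen after seeing the data, 5 without the NKG2A KO libraries numbered 4. Within groups the number was 1 in WT uneducated, 0 in NKG2A KO uneducated, 5 in WT NKG2A+ and 0 in WT Ly49C/I+ libraries. The causes were not tested.

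Over all genes, the 1519 calls in NKG2A KO mice were 889 with no filter, 748 with the block, 645 with the block and offsets and 967 without Ly49C/I+ library 4. In WT Ly49C/I+ cells 855 were 451 with no filter, 1528 with all groups in 1 fit and 466 without Ly49C/I+ library 7. In WT NKG2A+ over Ly49C/I+ cells 254 were 442 by the likelihood ratio test, 558 by DESeq2, 104 with no filter and 147 without Ly49C/I+ library 7. In NKG2A KO over WT Ly49C/I+ cells 0 were 60, 118 and 18 (likelihood ratio test, DESeq2, all groups in 1 fit).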

Other observations

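The genes whose spread within groups was most like the mean of the 9 genes, among 9287 genes that reached 5 CPM in 0.5 or more of the 37 libraries, were Parp12 (r = 0.64), Adgrg5 (r = 0.64), Trbc2 (r = 0.62), Ifi27l2a (r = 0.61) and Mbp (r = 0.60). Parp12 and Ifi27l2a are interferon-induced genes, Adgrg5 encodes an adhesion G protein-coupled receptor and Trbc2 a constant segment of the T cell receptor β chain. Gene by gene, Adgrg5 was the closest to Cxcr6 (r = 0.75), to Tmem176b (r = 0.73) and to Tmem176a (r = 0.61). Itgb7, an integrin chain of mucosal lymphocytes, was the closest to Gramd3 (r = 0.73), Nfatc3 to Kit (r = 0.72), Tmem229b to Rora (r = 0.69), Samhd1 to Cd200r1 (r = 0.67), Zfp654 to Il7r (r = 0.62) and Trbj1-3, a joining segment of the T cell receptor β chain, to Krt83 (r = 0.58). These values are descriptions over 37 libraries that share preparation, picked as the highest of 9287, and say nothing of shared function. The number of genes with a read, a measure of library complexity, had r between 0.08 (Krt83) and 0.42 (Tmem176b) with the 9 genes within groups.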
